A study of Mus musculus with 9 samples.

Results

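Immediate-early genes are switched on within minutes of a signal without new protein synthesis, and the 10 followed here in mouse liver are Egr1, Fos, Fosb, Jun, Junb, Jund, Ier2, Ier3, Atf3 and Nr4a1. They were chosen by name, and every probe set annotated to 1 of them alone was taken, which gave 12 of the 45101 probe sets on the array and 10 of the 18193 genes tested. The arrays compare 4 db/db samples with 5 BKS samples of liver from male mice aged 14 weeks on standard chow. The db/db animals (BKS.Cg-Leprdb) carry the db allele of the leptin receptor gene and become obese and diabetic with a fatty liver, while the BKS animals (C57BL/KSlepr+/+) are littermates of the same background with the intact gene. The allele is inherited and thus present in every tissue. Whether every sample is a mouse of its own is not stated, so p-values here measure only how far these samples spread, which may be technical. The hour of killing is not stated.

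In background terms, growth factors, insulin, cytokines and stress reach these genes through the mitogen-activated protein kinases and through cyclic AMP. Serum response factor with its Elk partners, and CREB with its coactivators, sit ready on the promoters and are switched by phosphorylation. Most products are transcription factors: Egr1 is a zinc finger protein, Fos and Jun proteins pair through leucine zippers to form AP-1, and Nr4a1 is an orphan nuclear receptor. In liver the group is best known from regeneration after partial hepatectomy, where it rises first as hepatocytes enter the cell cycle.

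The values are linear signals in the deposited table, and folds and tests use log2(signal + 16) after quantile normalization. The median signal per array lay between 67.2 and 96.4 in db/db and between 76.9 and 110.7 in BKS, and precision is limited by how few arrays there are. The arrays fall into 2 sets by the control probe set for 18S ribosomal RNA: its signal was 1872.7 to 19770.7 on db/db 3, db/db 4, BKS 4 and BKS 5 (the high 18S arrays) and 22.2 to 43.5 on the other 5. The ratio of the 3′ to the 5′ signal of beta-actin, which rises as RNA is degraded or labelled short, was 3.18 to 5.93 on the high and 1.62 to 3.32 on the low 18S arrays. Both sets hold both genotypes, so each difference is also given within each set. The hepatocyte markers Alb and Ttr stood at 15.50 ± 0.13 and 15.40 ± 0.09 on the log2 scale in db/db and at 15.47 ± 0.06 and 15.38 ± 0.06 in BKS (SD, n = 4 and 5), so these markers of the labelled tissue were bright. Of 6 hepatocyte markers measured 3 had lower and 3 higher means in db/db, with 0 called. Hnf4a stood at -0.35 and Apoa1 at -0.38 (limma, adjusted p = 0.121 and 0.178).

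Egr1 was 8.83-fold lower in db/db liver and Junb 2.23-fold lower, and the other 8 immediate-early genes did not pass the test. Of the 10 genes 2 fell and 0 rose (limma with Benjamini-Hochberg adjustment over all 18193 genes, adjusted p under 0.05). At an unadjusted p under 0.05 there were 4, the other two being Fos and Ier2, both lower on average in db/db, against 17.6% of all genes at that threshold, the share to set beside each list's count at an unadjusted p. Over all genes 5.49% were called, 2.61% as lower and 2.88% as higher. Group means were lower in db/db for 7 of the 10 and higher for 3, against 50.3% of all genes with a lower mean. The median log2 difference of the 10 was -0.27, and that of all genes was -0.00. The 3 genes with higher means were Fosb, Atf3 and Nr4a1. The groups of Egr1 and Junb did not overlap after normalization, which held for 9.12% of all genes (4.41% with db/db lower and 4.71% with db/db higher). Without db/db 3 only Egr1 was called. Within both 18S sets 5 of the 10 genes were lower and 2 higher in db/db, and 3 differed in sign between the sets. Those 3 were Fosb (0.92 low, -0.14 high), Jun (-0.60 low, 0.14 high) and Ier3 (0.45 low, -0.82 high). Atf3 stood at 0.01 within the low and 1.15 within the high 18S arrays.

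**Figure D1:**
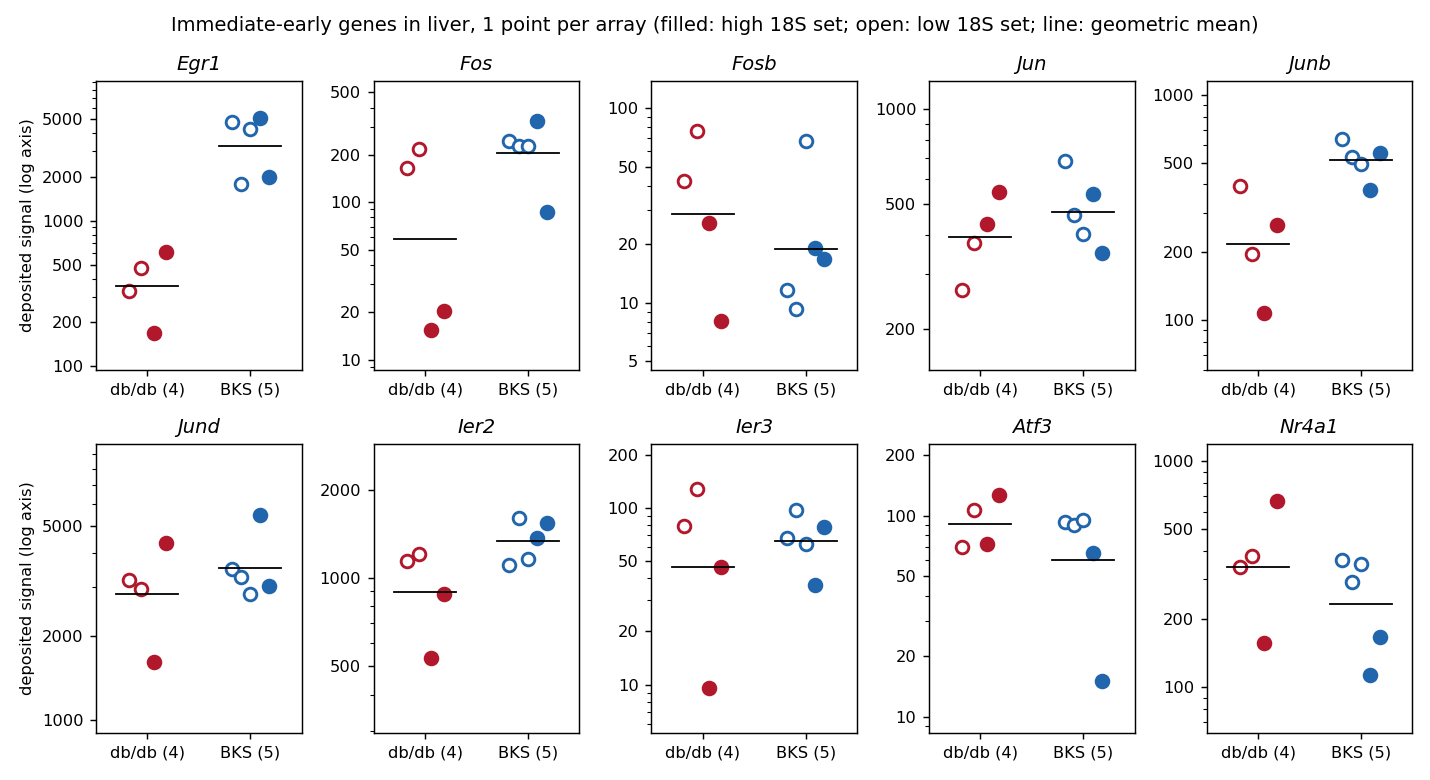
Deposited signal of the 10 genes on a log axis, with 1 point per array, 4 db/db arrays on the left and 5 BKS arrays on the right of each panel; filled points are the high 18S arrays, open points the low 18S arrays and lines geometric means. Egr1 lies at 168.8 to 611 in db/db, below all BKS arrays (1799 to 5082.9), while most other genes overlap.

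Egr1 encodes a transcription factor that binds GC-rich promoters and is induced by growth factors and insulin. Its signal was 330.4, 475.7, 168.8 and 611 on db/db 1 to 4, against 4763, 1799, 4308.4, 5082.9 and 1995.3 on BKS 1 to 5. Every db/db array lay below every BKS array. The normalized levels were 8.55 ± 0.73 in db/db and 11.70 ± 0.74 in BKS on the log2 scale (SD, n = 4 and 5). The log2 difference was -3.14 (SE 0.38, adjusted p = 0.000275, limma), which is 8.83-fold lower with a 95% interval of 5.02-fold to 15.5-fold. It was the 13th most negative difference among the 18193 genes. Within the high 18S arrays the difference was -3.15 and within the low 18S arrays -3.11. It stayed between -3.40 and -2.83 with any 1 array left out, and the call held in all 9 of those fits (adjusted p from 0.000206 to 0.00150).

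**Figure D2:**
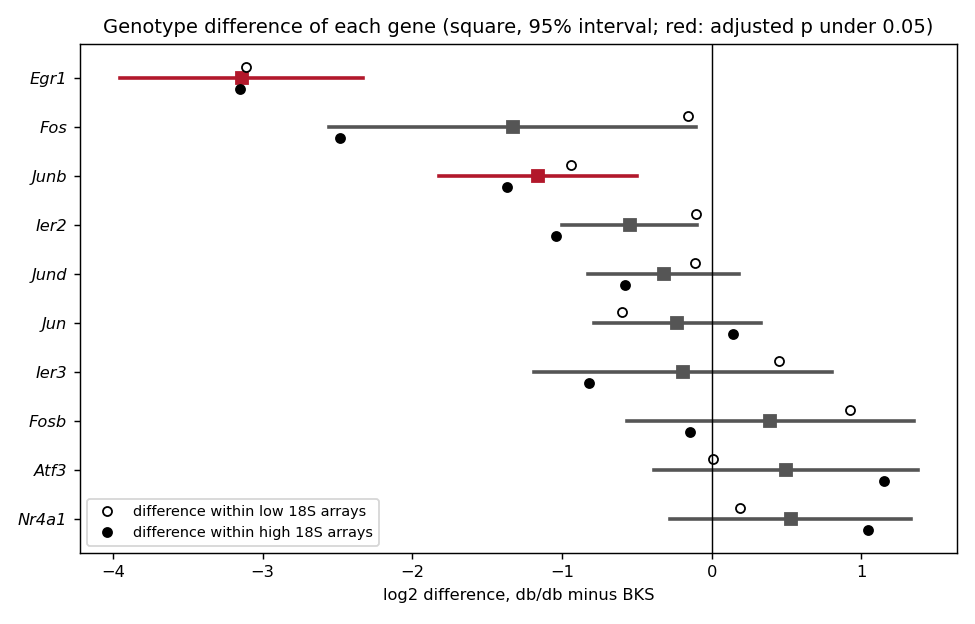
Log2 difference of db/db minus BKS for each gene (squares, n = 4 and 5) with its 95% interval from limma; circles give the difference within the high (filled) and the low (open) 18S arrays. Egr1 and Junb, in red, passed the test and have both circles well below 0, while the circles of Fos lie at -2.48 and -0.16.

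Fos, the partner that gives AP-1 its stability, had signals of 165.3, 217.3, 15.4 and 20.5 on db/db 1 to 4, against 246.5, 226.6, 227, 327.4 and 87.3 on BKS 1 to 5. db/db 3 and db/db 4 were far below every BKS array, and db/db 1 and db/db 2 lay within the BKS range. The levels were 6.42 ± 1.41 in db/db and 7.75 ± 0.63 in BKS on the log2 scale (SD, n = 4 and 5). The log2 difference of -1.33 (SE 0.57, 95% interval -2.56 to -0.10) did not pass over all genes (limma, adjusted p = 0.235). It was -2.48 within the high 18S arrays and -0.16 within the low 18S arrays. The test of that contrast between the sets, an interaction term added after the data were seen, gave -2.33 (SE 0.73, unadjusted p = 0.00798, adjusted p = 0.653 over all genes). The actin 3′ to 5′ ratios of the 2 sets, given above, overlapped (3.18 on db/db 3, high 18S, and 3.32 on BKS 1, low 18S), and the part of RNA quality in the values of Fos was not tested. Fosb, a relative of Fos with a similar zipper, was dim, at 42.4, 76.7, 25.8 and 8.1 in db/db and 11.7, 9.3, 67.9, 19.2 and 16.7 in BKS. The groups overlapped fully, and the log2 difference of 0.39 did not pass (95% interval -0.57 to 1.35, limma, adjusted p = 0.728).

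Junb, a Jun protein that can hold back growth driven by Jun, had signals of 395.2, 196.1, 107.7 and 264.1 on db/db 1 to 4, against 639.4, 527.4, 495, 377.9 and 551.3 on BKS 1 to 5. In the deposited values db/db 1 lay just above BKS 4, and after normalization the groups were apart, at 8.64 on db/db 1 and 8.77 on BKS 4. The levels were 7.87 ± 0.75 in db/db and 9.03 ± 0.23 in BKS (SD, n = 4 and 5). Junb fell by 1.16 on the log2 scale (SE 0.31, 95% interval -1.82 to -0.50, limma, adjusted p = 0.0436), or 2.23-fold. The difference was -1.36 within the high and -0.94 within the low 18S arrays. The call was near the threshold: leaving out db/db 1 (adjusted p = 0.0195, limma) or db/db 4 (0.0495) kept it, and leaving out any of the other 7 arrays lost it (the highest adjusted p was 0.1104). The difference ran from -1.42 to -0.85 in these 9 fits. Tested over all 45037 probe sets, of which 2.77% were called, its adjusted p was 0.0614, and Egr1 was then the only gene of the 10 with a called probe set.

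Jun itself, the partner that gives AP-1 most of its activating power, did not pass on either probe set. On the brighter one (1448694_at) the signals were 267.3, 376.5, 432.6 and 547.2 in db/db and 682.4, 461.2, 401.1, 537.1 and 350.9 in BKS. The log2 difference was -0.23 (95% interval -0.79 to 0.33, limma, adjusted p = 0.731). On the other (1417409_at) db/db 1 to 3 stood at 285.8, 190.5 and 185.3, below all BKS arrays (418.6 to 583.6), and db/db 4 stood at 752.1, above them all. Its difference was -0.68 (limma over all probe sets, adjusted p = 0.446) while leaving out db/db 4 gave -1.12 (adjusted p = 0.0364, limma). The probe sets thus disagreed on db/db 2, db/db 3 and db/db 4. Jund, the Jun protein that is most constant in resting cells, had signals of 3185.1, 2949.7, 1621.6 and 4318.9 in db/db and 3505.9, 3266.9, 2841.3, 5463.2 and 3024.8 in BKS. The groups overlapped apart from the low value of db/db 3, and the difference of -0.32 did not pass (95% interval -0.82 to 0.19, limma, adjusted p = 0.544). Its dim probe set (1440265_at) stood at 59.3, 70.5, 18.1 and 30.2 in db/db and at 205.7, 35.4, 131.4, 111.8 and 154.6 in BKS. There the difference was -1.14 (limma over all probe sets, adjusted p = 0.295), with BKS 2 the only BKS array among the db/db values.

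Ier2, a small nuclear protein induced by growth factors, had signals of 1142.1, 1203.5, 532.4 and 883.2 in db/db and 1108.7, 1597.5, 1160.6, 1375.1 and 1538.2 in BKS. db/db 3 and db/db 4 were below all BKS arrays and db/db 1 and db/db 2 were within them. The log2 difference was -0.55 (SE 0.21, 95% interval -0.998 to -0.0965) and did not pass (limma, adjusted p = 0.175). As for Fos, it was larger within the high (-1.04) than within the low 18S arrays (-0.11), and the contrast between the sets did not pass (unadjusted p = 0.0129, adjusted p = 0.665, limma). Ier3, which protects cells from death downstream of NF-kappa B, was dim at 79.1, 128.4, 9.6 and 46.5 in db/db and 67.3, 97.7, 62.7, 36.8 and 77.7 in BKS. Its difference was -0.19 (95% interval -1.19 to 0.80, limma, adjusted p = 0.883) and stood at 0.29 without db/db 3.

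Atf3 and Nr4a1 had higher means in db/db, and neither passed the test. Atf3 is a bZIP repressor induced by stress signals. Its signal was 69.8, 106.5, 71.9 and 126.3 in db/db and 93, 90, 94.8, 65.5 and 15 in BKS, where BKS 5 stood far below the rest. The log2 difference was 0.49 (95% interval -0.39 to 1.38, limma, adjusted p = 0.600) and 0.19 without BKS 5. Nr4a1, which in mouse liver takes part in the control of glucose production, had signals of 341.6, 381.7, 157.2 and 665.8 in db/db and 365.7, 292.7, 351.7, 112.9 and 167.1 in BKS. db/db 4 was above all other arrays and db/db 3 was near the low end. The difference was 0.53 (95% interval -0.28 to 1.33, limma, adjusted p = 0.523), with 1.05 within the high and 0.19 within the low 18S arrays. The intervals of both genes reach below 0 and still allow rises of more than 1 on the log2 scale.

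The promoters of Junb, which fell, and of Fos and Nr4a1, which had a lower and a higher mean in db/db without passing, are shown side by side. Each runs from 250 bases before to 50 bases after the RefSeq start, 5′ to 3′ on the strand of the gene, from build GRCm38.p6. They lie at chr8:84978699-84978998 (minus strand), chr12:85473640-85473939 (plus strand) and chr15:101266596-101266895 (plus strand). Capitals mark matches, on either strand, to TGACG (the core of the cyclic AMP response element), GCGGGGGCG (the site of Egr proteins) and TATAAA (the TATA box).
Junb: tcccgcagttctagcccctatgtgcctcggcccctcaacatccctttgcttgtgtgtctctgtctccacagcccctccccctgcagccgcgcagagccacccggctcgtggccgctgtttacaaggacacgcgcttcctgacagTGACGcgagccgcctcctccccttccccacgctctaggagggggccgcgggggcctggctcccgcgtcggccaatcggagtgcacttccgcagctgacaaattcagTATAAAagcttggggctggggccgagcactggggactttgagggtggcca
Fos: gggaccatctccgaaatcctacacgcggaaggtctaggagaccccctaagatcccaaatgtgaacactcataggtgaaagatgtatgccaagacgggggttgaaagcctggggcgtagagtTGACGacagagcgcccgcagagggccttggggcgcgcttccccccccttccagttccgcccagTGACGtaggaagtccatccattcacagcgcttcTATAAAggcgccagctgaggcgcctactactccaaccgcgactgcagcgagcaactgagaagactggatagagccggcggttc
Nr4a1: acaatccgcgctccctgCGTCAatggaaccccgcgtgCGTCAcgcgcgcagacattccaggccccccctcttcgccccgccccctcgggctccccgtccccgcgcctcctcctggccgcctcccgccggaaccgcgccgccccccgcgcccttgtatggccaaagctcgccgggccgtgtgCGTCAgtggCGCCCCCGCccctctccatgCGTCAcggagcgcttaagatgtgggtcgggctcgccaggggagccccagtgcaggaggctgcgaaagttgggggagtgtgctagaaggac
Promoters of 8 of the 10 genes could be matched. Those of Egr1 and Ier2 were not available, so nothing below describes them. TGACG was found in 5 of the 8 (Junb, Fos, Nr4a1, Fosb and Atf3), with 4 matches in Nr4a1, 2 in Fos and 1 in each of the others, and it was found in 20.8% of all 32851 promoters of this length. GCGGGGGCG was found in Nr4a1 and Fosb and in 2.91% of all promoters, and TATAAA in Junb and Fos and in 13.6%. The TATAAA match begins at -33 in Fos and at +1, the RefSeq start itself, in Junb. For Junb the name TATA box thus rests on the letters alone. No match in these windows was found to TGACGTCA (the full element, which contains TGACG), to TGACTCA (the AP-1 site) or to the CArG box of serum response factor, which occur in 1.79%, 5.2% and 1.63% of all promoters. A match is a stretch of letters and not a measured binding site. Whether Junb, Fos and Nr4a1 differed from each other in their change, or whether any motif goes with the change, was not tested.

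Within a genotype the genes also differed between arrays, and after normalization db/db 3 was the lowest db/db array for 8 of the 10 genes, all but Fosb and Jun. For Atf3 this was by a small margin (6.42, against 6.47 on db/db 1), and in the deposited signals db/db 1 was lower. db/db 3 was the lowest of all 9 arrays for 6. Among BKS no array was lowest for more than 3. The share of all genes that were lowest on db/db 3 was not counted, so the pattern is not shown to be particular to these genes. Over all genes 998 were called with all arrays and 599 without db/db 3. The SD was larger in db/db than in BKS for 7 of the 10, with 1.41 and 0.63 for Fos, 0.75 and 0.23 for Junb and 1.03 and 0.38 for Ier3. Whether the spread differed between genotypes was not tested.

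**Figure D3:**
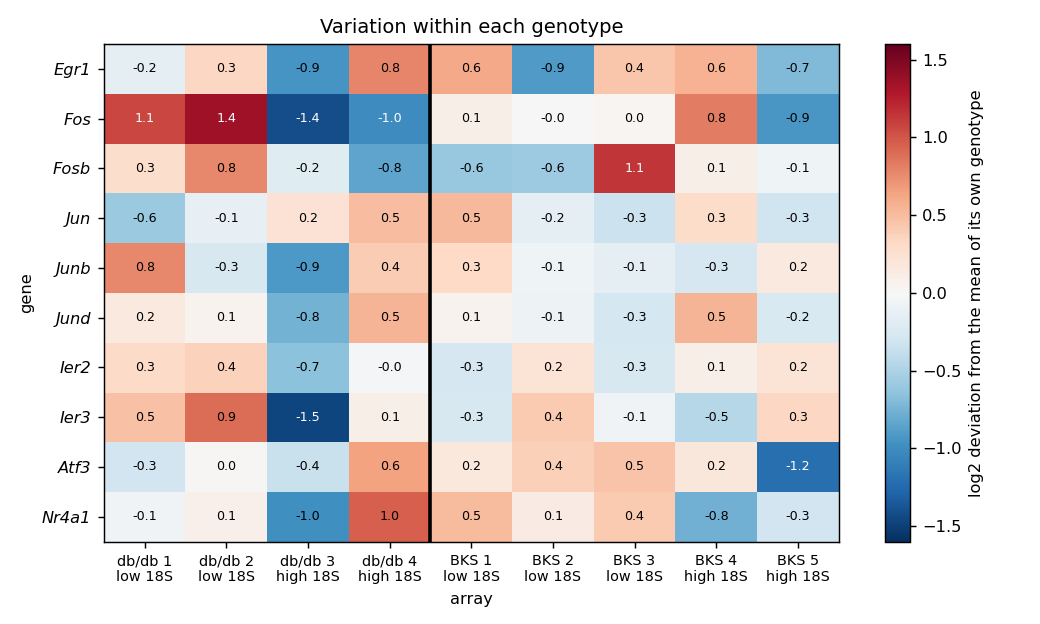
Log2 deviation of each gene on each array from the mean of its own genotype, with 4 db/db arrays on the left of the line and 5 BKS arrays on the right. The column of db/db 3 is negative for 9 of the 10 genes, with Ier3 and Fos lowest.

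Over the 45 pairs of genes, deviations from the genotype means had a median Pearson r of 0.28 (n = 9 arrays), and r was above 0 in 35 pairs. No pair passed (0 of 45 by Pearson and by Spearman, exact permutation of arrays within genotype, two-sided, Benjamini-Hochberg over 45), with 2 and 1 pairs at an unadjusted p under 0.05. The closest pair was Ier2 and Ier3 (r = 0.89, exact permutation p = 0.0132, adjusted p = 0.594; rho = 0.88, exact permutation p = 0.0118, adjusted p = 0.531). Without db/db 3 and BKS 5, the arrays farthest from the median of Ier2, its r was 0.60. Egr1 and Jund followed (r = 0.70, exact permutation p = 0.0486, adjusted p = 0.739; rho = 0.63, exact permutation p = 0.108, adjusted p = 0.827), with r = 0.49 without db/db 3 and db/db 1. Without db/db 3 the median r over pairs was -0.12 and 20 pairs were above 0, so the positive balance rested on that array. Over all 9 arrays with the 18S set taken out as a term, the median was 0.32 and 32 pairs were above 0, and each set alone holds too few arrays for a correlation.

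**Figure D4:**
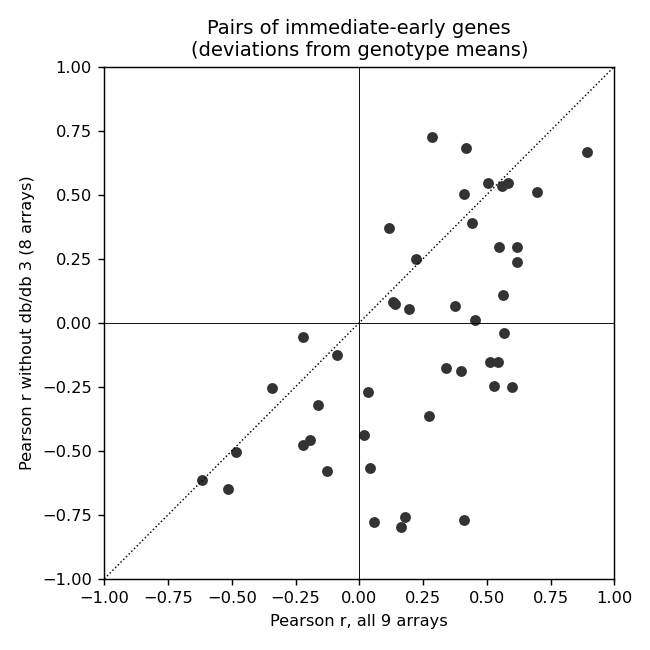
Pearson r of the 45 pairs of genes over all 9 arrays (x axis) against r without db/db 3 (y axis), both from deviations from the genotype means. Most points lie below the dotted line of equal values, and 20 stay above 0 on the y axis.

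The mean of the 10 scaled deviations was -1.26 on db/db 3 and between -0.47 and 0.50 on the other arrays. The 10 other genes that followed this mean most closely over the 9 arrays were Il15, Ccn1, Ang, Ms4a3, Itga4, Rbl1, Erc1, 9330175E14Rik, Zfp647 and Saa3, with r from 0.94 to 0.96. Without db/db 3 their r ran from 0.41 for Zfp647 to 0.93 for Il15. Il15, Ms4a3, Itga4, Rbl1, 9330175E14Rik and Zfp647 were dim, with mean signals from 80.0 for Ms4a3 to 126.5 for Zfp647. On db/db 3 the deposited signals of these dim genes ran from 6.3 for Rbl1 to 33.7 for Il15. Ccn1, a matrix protein, is itself induced as an immediate-early gene, and its r was 0.60 without db/db 3. These are the highest values among all genes on 9 arrays and are given as a description.

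Of 36 other measured genes of the immediate-early class, 1 rose and 3 fell. Over all genes 2.88% were called as higher and 2.61% as lower, the shares to set beside each list's calls. Phlda1, induced by growth factors, was 5.26-fold lower in db/db (11.11 ± 0.88 against 13.51 ± 0.44 on the log2 scale, SD, n = 4 and 5, limma, adjusted p = 0.000857). Socs3, which shuts off cytokine signalling, was 4.31-fold lower (adjusted p = 0.00511), and Mcl1, a survival factor, 1.46-fold lower (adjusted p = 0.0109). Bhlhe40, a repressor in the circadian clock, was 1.97-fold higher (adjusted p = 0.00367). The median log2 difference of this list was -0.08, and it was 0.10 without db/db 3, with the same counts of calls. The probe set of largest variance stood at 0.85 for Mcl1, and for Socs3 its adjusted p was 0.134 (limma). Mcl1 was not called with median centring (adjusted p = 0.275) or as the mean of its probe sets (-0.14, adjusted p = 0.791). Gene lists are described by counts and medians alone.

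Among the proteins that pair with AP-1 through a zipper, 1 of 19 measured fell and 0 rose, with a median of 0.20. With the 18S set as a block, which raised the calls over all 18193 genes from 998 to 1500, 2 rose and 1 fell. The gene that fell was Atf2, the partner of Jun on the cyclic AMP type of site, at 1.51-fold lower (limma, adjusted p = 0.0219). Another probe set of Atf2, the one of largest variance, stood at 0.94 and did not pass, nor did the mean of its probe sets (-0.18, adjusted p = 0.702, limma) or the gene with median centring (adjusted p = 0.212). Among kinases and factors upstream of the group 1 rose and 2 fell of 32 measured (median -0.16). Egfr, the receptor for epidermal growth factor, was 3.57-fold lower in db/db (adjusted p = 0.0243), with 5018.5, 4716.5, 1206.7 and 3088 in db/db and 18791.7, 12822, 14527.2, 8396.2 and 5278.8 in BKS. All deposited db/db values lay below all BKS values, with db/db 1 close to BKS 5, and after normalization the groups overlapped. Crtc2, a coactivator of CREB, was 1.95-fold higher (limma, adjusted p = 0.0471), and Atf2 is in this list too. Without db/db 3 none of the calls of these lists held (0 rose and 0 fell in both). With each array left out in turn, the call held in 5 of 9 fits for Atf2 (lost also without BKS 1, BKS 4 or db/db 2), in 4 of 9 for Egfr (lost also without BKS 1, BKS 2, BKS 3 or db/db 4) and in 2 of 9 for Crtc2. As the mean of its probe sets Egfr stood at -1.14 (limma, adjusted p = 0.0290). It was not called with eBayes with no trend (adjusted p = 0.105) or robust eBayes (adjusted p = 0.119). Crtc2 was not called with median centring (limma, adjusted p = 0.0657) or on its probe set of largest variance (adjusted p = 0.302). Over 23 settings, the main one included, Egfr was called in 16 and Crtc2 in 11.

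Of 24 inhibitors that feed back on these genes or that quench the kinases, 0 passed (limma, 7 at an unadjusted p under 0.05, and 1 rose with the 18S set as a block). The smallest adjusted p were those of Dusp1, a phosphatase of the kinases, at 0.66 on the log2 scale (adjusted p = 0.125), and of Tob2 at 0.56 (adjusted p = 0.172). On its probe set of largest variance Tob2 stood at 2.42 and was called (limma, adjusted p = 0.00179). The integrated stress response, of which Atf3 is a part, had 1 gene higher and 1 lower of 16 measured (median 0.02). The lipoprotein receptor Vldlr rose 16.5-fold (limma, adjusted p = 1.32e-06) and the asparagine synthetase Asns fell 2.66-fold (adjusted p = 0.00533). As the mean of all probe sets, Vldlr stood at 2.55 on the log2 scale, against 4.04 on the probe set used, and Asns at -2.0015, against -1.41, both still called. With the 18S set as a block 2 rose and 3 fell, where 1500 of all 18193 genes were called. Heat shock proteins, which share stress signals with the immediate-early genes, had 2 of 11 lower and 0 higher (median -0.33). Hspb1, a small chaperone, was 5.79-fold lower (limma, adjusted p = 0.000205) and Hsp90aa1 1.89-fold lower (adjusted p = 0.00146). Hsp90aa1 was not called with median centring (adjusted p = 0.180), on its probe set of largest variance (-0.67, adjusted p = 0.663) or as the mean of its probe sets (-0.47, adjusted p = 0.313). Of 10 growth arrest genes 0 passed (limma, 2 at an unadjusted p under 0.05, median 0.33), with Ccng1 at 0.36 (adjusted p = 0.214; called at 0.90, adjusted p = 0.0188, on its probe set of largest variance and at 0.70, adjusted p = 0.0141, as the mean of its probe sets) and Plk2 at 0.73 (adjusted p = 0.258).

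**Figure D5:**
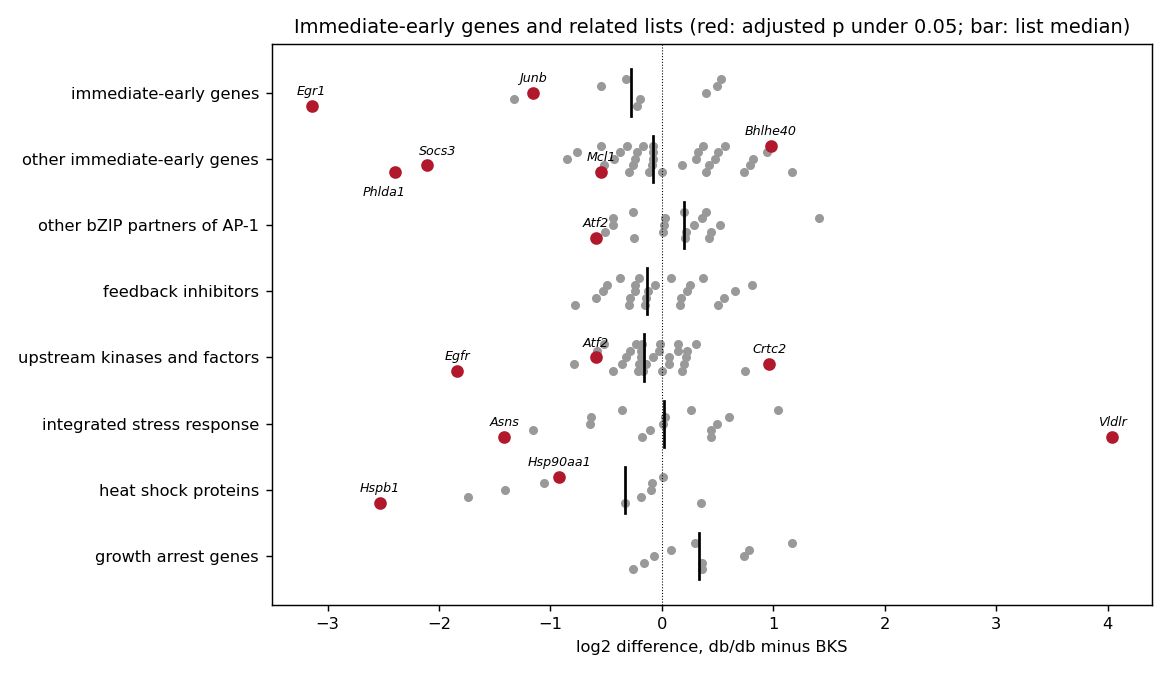
Log2 difference of db/db minus BKS for each measured gene of the immediate-early group and of 7 related lists, with called genes in red (limma, adjusted p under 0.05) and a bar at the median of the list. Egr1, Phlda1, Socs3 and Hspb1 lie below -2, and the medians lie between -0.33 and 0.33.

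Immediate-early RNA also comes from cells other than hepatocytes, and in bulk liver fewer cells of a type and less RNA per cell cannot be told apart. Markers of Kupffer cells and macrophages had lower means in db/db for 9 of 11 genes, with 0 called (limma, 4 at an unadjusted p under 0.05, 2 lower with the 18S set as a block) and a median of -0.46, which was -0.20 without db/db 3. Their summed signal was 4176 to 11622 in db/db and 6904 to 19927 in BKS. Adgre1, the F4/80 antigen, stood at -0.67 (adjusted p = 0.131) and Timd4 at -1.21 (adjusted p = 0.205). Timd4 was dim, at 56.1, 95.5, 7.9 and 7.8 in db/db and 36.8 to 164.1 in BKS. Its difference ran from -1.77 to -0.68 over the settings. No marker was called among 6 for hepatocytes, 8 for endothelial cells, 8 for stellate cells, 4 for cholangiocytes, 5 for lymphocytes and 3 for neutrophils (limma, 3, 2, 2, 2, 0 and 0 at an unadjusted p under 0.05). Means were lower in db/db for 3 of 4 cholangiocyte (median -0.77), 5 of 5 lymphocyte (-0.11) and 2 of 3 neutrophil markers (-0.18). They were lower for 3 of 8 endothelial (0.12), 2 of 8 stellate (0.41) and 3 of 6 hepatocyte markers (-0.09). Over all genes 50.3% had a lower mean. With the 18S set as a block 1 endothelial and 1 stellate marker rose and 1 cholangiocyte marker fell, and 1 cholangiocyte marker fell without db/db 3. Among all 18193 genes 1500 were called with that block and 599 without db/db 3, against 998 in the main fit. The summed signals of endothelial cells were 1681 to 4255 in db/db and 1864 to 4080 in BKS, and those of stellate cells 5705 to 13961 and 3447 to 13755. In these lists the smallest adjusted p were those of Hnf4a and Apoa1, Pecam1 and Lyve1, Lrat and Des, Sox9 and Krt7, Cd79a and Nkg7, and S100a8 and Csf3r, from 0.0804 for Sox9 to 0.465 for Nkg7. Of 3 red cell genes Alas2, which makes heme, fell 2.30-fold (limma, adjusted p = 0.0113), and of 2 genes of exocrine pancreas Cela1, an elastase, fell 2.73-fold (adjusted p = 0.00252). Group means were lower in db/db for 2 and higher for 1 of the red cell genes (median -0.01). Of the pancreas genes 1 was lower and 1 higher on average. The part of these other cells in the values of Egr1 and Junb was not tested.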

How the data were processed

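The authors' deposited table holds 1 linear intensity per probe set for each of 9 Affymetrix arrays. Biotin-labelled cRNA was made from total liver RNA, per the labels' protocols. The software for summarisation and background is "not given in the sources used here", and there are no detection calls. The deposited intensities had a common mean of 500.004 after trimming 2% at each end. No arrays were identical.

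Intensities were taken as log2(value + 16) and, because array medians spanned 0.61 (limit 0.25), put on common quantiles (limma 3.58.1, R 4.3.3). Of 45037 probe sets that are not controls, 34945 had 1 gene symbol. The probe set with the highest mean stood for each of 18193 genes, with no filter. limma (lmFit, eBayes with trend) used genotype as the only term, two-sided, with Benjamini-Hochberg adjustment over all genes and a threshold of 0.05, which a gene said to have risen or fallen has passed. The 18S sets were split at the largest gap of the mean log2 signal of the 18S controls. Members and lists were chosen with earlier results of these data known. From each list up to 3 called genes per direction are named, or otherwise the 2 with the smallest adjusted p. The steps were tested on simulated data. Alternatives changed 1 choice at a time. Probe sets were kept, except where the probe set of largest variance or the mean of all probe sets stood for the gene. The interaction with the 18S set and the list counts without db/db 3 or with the block were added after the data were seen.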

Additional observations from a re-analysis of the deposited data

Results flagged for a closer look

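In 24 groups of arrays (12 probe sets in both genotypes) 2 single arrays stood apart from the rest of their genotype by the size of the gap relative to the range, a test that chance meets in about 1 of 20 groups. Atf3 on BKS 5 was at 5.08 on the log2 scale (deposited signal 15), with the other BKS arrays at 65.5 to 94.8. The dim probe set of Jund (1440265_at) on BKS 2 was at 5.61 (deposited signal 35.4), with the other BKS arrays at 111.8 to 205.7.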

How the results depend on the processing

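The call of Egr1 held in all 22 alternatives with a test (log2 difference -3.40 to -2.83). Of the 10 members 2 were called, and 1 (Egr1) with median centring, the probe set of largest variance, the mean of all probe sets, eBayes with no trend or array weights, and 1 to 2 with 1 array left out. The call of Junb held in 10 of its 22 alternatives with a test (adjusted p from 0.0195 to 0.1104 over all). Of the 12 probe sets 1 was called, and 2 (Egr1 and Junb) with a mean signal of at least 100, robust eBayes or the 18S block, and 1 to 2 with 1 array left out. Over all genes 998 were called, and 535 with median centring, 632 with the probe set of largest variance, 467 with eBayes with no trend, 1500 with the 18S block and 599 (without db/db 3) to 923 with 1 array left out. Pairs of members with r above 0 numbered 35, and 20 (without db/db 3) to 35 with 1 array left out. The sign turned for Ier3 without db/db 3 (-0.49 to 0.29 over the arrays left out), and with the probe set of largest variance for Mcl1 (0.85), Atf2 (0.94), Plk2 (-0.40) and Hnf4a (0.55, and 0.13 with the mean of all probe sets), where another probe set stands for the gene. Within a single 18S set the sign turned, among the 10 genes, for Fosb and Jun (high 18S) and for Ier3 (low 18S). The cause of the other changes was not tested. Sample numbers were not taken as pairs, since the correlation of deviations of equal numbers ran from -0.07 to 0.17. With the replicate number as a block 1147 genes and 2 members were called (Junb adjusted p = 0.0417, limma). Without detection calls, how far the dim Fosb, Ier3 and Atf3, and Fos on db/db 3 and db/db 4, lie above background is unknown. The number of arrays limits all intervals.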

Other observations

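Dusp1, the phosphatase that switches off the kinases upstream of the immediate-early genes, was chosen here after its values were seen. Its signal was 2895.3, 3275.3, 1630.4 and 4077.2 on db/db 1 to 4, against 2227.8, 2062, 1464.6, 1806 and 1414.9 on BKS 1 to 5. All db/db arrays but db/db 3 were above all BKS arrays. The log2 difference was 0.66 (limma, adjusted p = 0.125) with all arrays and 0.91 (adjusted p = 0.0167) without db/db 3. Over the 9 fits that left out 1 array the adjusted p ran from 0.0167 to 0.299.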
